A study of Mus musculus with 12 samples.

Results

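CD137, encoded by Tnfrsf9, is the receptor bound by the antibody used in the study, and the genes described here are Tnfrsf9 with 6 genes that act beside it: the costimulatory receptors OX40 (Tnfrsf4), GITR (Tnfrsf18) and CD27 (Cd27), and the intracellular partners Traf1, Traf2 and Birc3. They were chosen by gene symbol, with no measured value used in the rule, though earlier results of these data were known at that choice. All 7 were found among the 23134 genes of the deposited table, and all 7 were among the 14883 genes tested.

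The data are RNA sequencing of unsorted bone marrow cells from wild-type C57BL/6 mice that had all received Vk12653 myeloma cells into a vein. Vk12653 is a transplantable mouse myeloma, a cancer of plasma cells. Marrow came from 3 samples each at day 4, day 11 and day 18 of anti-CD137 treatment, which were days 14, 21 and 28 after the myeloma injection. The antibody was 3H3, an agonist, given into the peritoneum at 10 µg, 2 times a week. The 3 untreated samples were taken on day 10 after the injection, before any antibody. Days of antibody and days of myeloma growth therefore rise together and cannot be told apart in this design. The labels give neither age nor sex and do not say how many mice made up a sample, so p-values measure the spread between these samples.

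Receptors of this family sit on lymphocytes and carry no enzyme of their own. When bound, they recruit TRAF adaptors to their tails. TRAF2, TRAF1 and the ubiquitin ligase cIAP2 (Birc3) then pass the signal to NF-kB, which raises survival genes. CD137 is scarce on resting T cells and appears after T cell receptor engagement. OX40 and GITR are abundant on regulatory T cells and on activated T cells. CD27 is already present on resting T cells and is bound by CD70. Traf1 and Birc3 are themselves known NF-kB target genes, and TRAF2 is made in most cells.

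Values are the authors' normalised counts, and changes are differences in log2(normalised count + 1) from 1 limma fit over the 12 samples. A change is called where the p-value, adjusted over all 14883 genes by the Benjamini-Hochberg method, is below 0.05. The assigned reads per sample, estimated from the spacing of low values, were 16 to 17.8 M at day 4, 16.8 to 24.3 M at day 11, 18.6 to 23.6 M at day 18 and 21.7 to 25.3 M in untreated marrow. Depth and day 4 are therefore nearly the same split. Neutrophil transcripts were abundant in every sample: 9 neutrophil marker genes summed to 1403446 to 1937733 normalised counts over the 12 samples.

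In the GRCm38 build with GENCODE M21, Tnfrsf9 (ENSMUSG00000028965.13) lies at chr4:150914562-150946102 on the plus strand. RefSeq gives it a pair of promoter windows, each running from 250 bases before a gene start to 50 after it. The first lies at chr4:150919905-150920204 and the second at chr4:150927749-150928048, both on the plus strand of GRCm38.p6. They are shown with the promoter window of Traf1, chr2:34961723-34962022 on the minus strand, because Tnfrsf9 and Traf1 are the 2 members called higher at every treated day. Capitals mark matches to the kappaB consensus, the NF-kB binding motif, or to the AP-1 motif TGANTCA, each searched on both strands.
Tnfrsf9 first window: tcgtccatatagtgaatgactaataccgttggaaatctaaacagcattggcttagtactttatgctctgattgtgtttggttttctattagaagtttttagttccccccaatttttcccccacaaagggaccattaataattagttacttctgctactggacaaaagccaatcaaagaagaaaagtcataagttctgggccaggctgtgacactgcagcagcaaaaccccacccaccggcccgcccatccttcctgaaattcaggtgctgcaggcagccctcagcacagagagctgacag
Tnfrsf9 second window: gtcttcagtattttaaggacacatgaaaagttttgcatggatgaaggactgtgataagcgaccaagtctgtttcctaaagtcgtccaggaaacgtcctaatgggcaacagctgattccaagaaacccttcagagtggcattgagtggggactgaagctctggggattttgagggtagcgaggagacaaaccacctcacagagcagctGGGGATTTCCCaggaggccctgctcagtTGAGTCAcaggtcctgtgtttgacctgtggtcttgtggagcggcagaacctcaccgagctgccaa
Traf1 window: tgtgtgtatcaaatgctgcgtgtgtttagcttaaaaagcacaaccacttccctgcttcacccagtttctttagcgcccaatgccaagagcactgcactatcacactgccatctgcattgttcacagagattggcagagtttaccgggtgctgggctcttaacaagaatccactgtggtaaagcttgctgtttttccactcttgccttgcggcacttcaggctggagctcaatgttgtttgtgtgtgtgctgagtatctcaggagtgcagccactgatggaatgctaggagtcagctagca

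The second Tnfrsf9 window held 2 kappaB matches that overlap each other, beginning 43 and 42 bases before the gene start, and 1 AP-1 match beginning 15 bases before it. The first Tnfrsf9 window and the windows of the other 6 members held no match to either motif. Of 32851 RefSeq promoter windows of the same length, 8.5% held the kappaB consensus and 7.8% held the AP-1 motif. The GENCODE start of Tnfrsf9, chr4:150914562, lies before both RefSeq windows, and the sequence around it was not searched. Which of the Tnfrsf9 starts was used cannot be read from counts per gene.

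Tnfrsf9 had 239, 152 and 280 normalised counts in the day 4 samples, against 31, 32 and 45 in untreated marrow. At day 11 it had 240, 144 and 346, and at day 18 it had 360, 363 and 340. Every treated sample lay above every untreated one, and the lowest treated value, 144, was over 3 times the highest untreated value. The antibody's target was thus the member with the greatest change at each of the 3 days. Against untreated marrow, Tnfrsf9 rose by 2.58 ± 0.28 on the log2 scale at day 4 (SE, 5.97-fold, adjusted p = 9.51e-05). The rise was 2.65 ± 0.28 at day 11 (6.3-fold, adjusted p = 5.91e-05) and 3.28 ± 0.28 at day 18 (9.73-fold, adjusted p = 3.86e-06). It passed the threshold in all 22 processing alternatives at each day.

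The spread within a day was wide at first and narrow at the end. Day 11 samples ranged from 144 to 346, while day 18 samples ranged from 340 to 363. Day 18 exceeded day 4 by 0.71 ± 0.28 (adjusted p = 0.182), with no overlap between the samples of the 2 days. Day 18 exceeded day 11 by 0.63 ± 0.28 (adjusted p = 0.69), and 1 day 11 sample reached into the day 18 range. Neither difference passed the threshold, and their 95% intervals, 0.11 to 1.3 and 0.04 to 1.22, do not show that the days were alike.

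**Figure D1:**
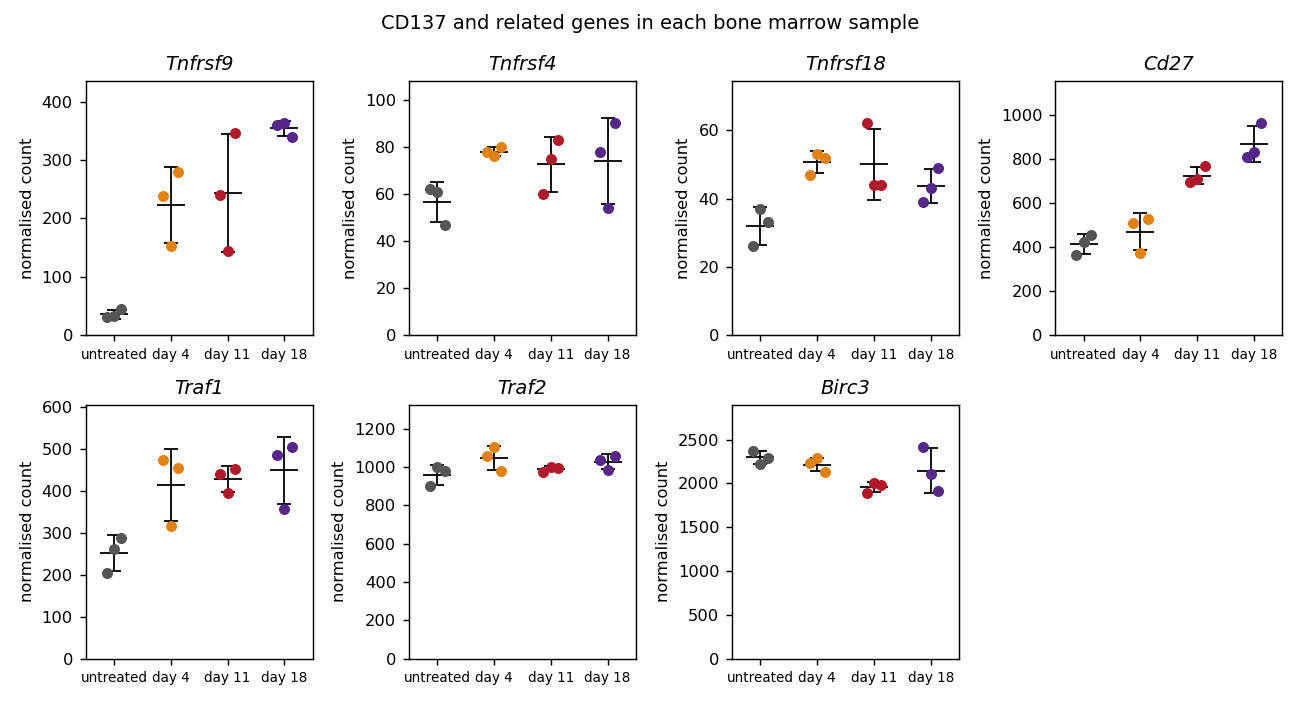
Normalised counts of the 7 genes in each sample (points) with the mean and SD of each group (bars, n = 3 samples), for untreated marrow and days 4, 11 and 18 of anti-CD137; each panel has its own linear axis from 0. Tnfrsf9 lies between 144 and 363 in treated samples and between 31 and 45 in untreated ones, Cd27 climbs at days 11 and 18, and Traf2 and Birc3 keep similar levels.

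Of the 7 members, 2 were called higher at day 4 (Tnfrsf9 and Traf1), where 2.40% of all genes tested were called higher. At day 11, 3 members were called higher (Tnfrsf9, Cd27 and Traf1), against 3.20% of all genes. The same 3 were called higher at day 18, against 5.29% of all genes. No member was called lower by limma at any of the 3 days, where 2.24%, 2.12% and 3.91% of all genes were called lower at days 4, 11 and 18. At an unadjusted p below 0.05, 4 members were higher at each of days 4, 11 and 18, against 10.2%, 10.5% and 11.8% of all genes. At that threshold 0, 1 (Birc3) and 0 members were lower, against 9.83%, 9.21% and 11.5% of all genes. The treated and untreated samples did not overlap for 4 members at day 4, 5 at day 11 and 4 at day 18, against 25.5%, 26.4% and 26.3% of all genes. Over the 4 time points together, the F-test called Tnfrsf9, Cd27 and Traf1, where it called 9.47% of all genes.

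**Figure D2:**
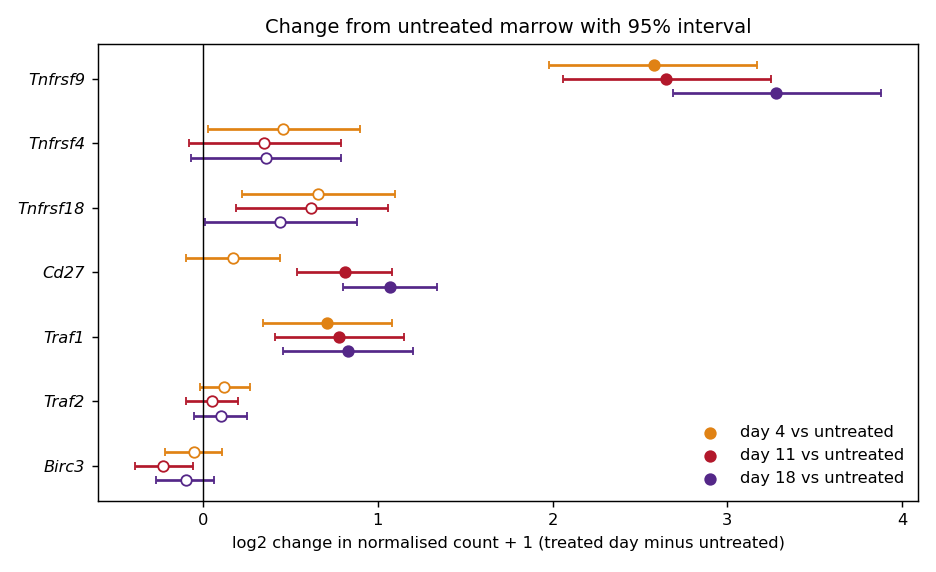
Difference in log2(normalised count + 1) between each treated day and untreated marrow for the 7 genes (points, coloured by day) with its 95% interval (bars) from the limma fit; filled points passed an adjusted p of 0.05. Tnfrsf9 lies at 2.58 to 3.28, Cd27 and Traf1 below 1.1, and the other 4 genes have open points at every day.

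Cd27 encodes the receptor that sustains the survival of activated T cells (chr6:125232622-125237010, minus strand, sharing 129 exon bases with the microRNA gene Mir8113). It had 511, 374 and 528 normalised counts at day 4, against 366, 422 and 457 in untreated marrow, and these groups overlap. The day 11 samples had 698, 713 and 769, and the day 18 samples had 810, 834 and 964. Cd27 thus stood apart from untreated marrow at the 2 later days and not at day 4. The change was 0.17 ± 0.13 at day 4 (adjusted p = 0.489, 95% interval −0.1 to 0.44), 0.81 ± 0.13 at day 11 (adjusted p = 0.00173) and 1.07 ± 0.13 at day 18 (adjusted p = 0.000114).

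Cd27 was the 1 member that differed between treated days by the test. It was higher at day 11 than at day 4 by 0.64 ± 0.13 (adjusted p = 0.0172), a comparison in which 0.726% of all genes were called higher. Day 18 exceeded day 4 by 0.90 ± 0.13 (adjusted p = 0.000824), where 2.77% of all genes were called higher. Between day 18 and day 11 no member was called by limma, where 0.00672% of all genes were called in either direction, and 1 member, Tnfrsf9, had an unadjusted p below 0.05, as did 6.99% of all genes. The call between day 11 and day 4 was lost without day 4 replicate 2 (0.48, adjusted p = 0.0501), day 11 replicate 1 (0.67, adjusted p = 0.0565), day 11 replicate 2 (0.65, adjusted p = 0.0538) or day 11 replicate 3 (0.60, adjusted p = 0.084). The call between day 18 and day 4 was kept in all 22 alternatives, as were those of Cd27 at days 11 and 18 against untreated marrow.

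Tnfrsf18 encodes GITR, a receptor that is high on regulatory T cells (chr4:156026164-156028895, plus strand). It had 47, 53 and 52 normalised counts at day 4, against 26, 37 and 33 in untreated marrow. It had 62, 44 and 44 at day 11 and 39, 43 and 49 at day 18. All 9 treated samples lay above all 3 untreated ones, yet no day passed the test. The change was 0.66 ± 0.20 at day 4 (adjusted p = 0.0843, 95% interval 0.22 to 1.1), 0.62 ± 0.20 at day 11 (adjusted p = 0.0994, 0.19 to 1.06) and 0.44 ± 0.20 at day 18 (adjusted p = 0.207, 0.01 to 0.88). With samples weighted by their estimated quality, days 4 and 11 passed it (0.67, adjusted p = 0.034, and 0.75, adjusted p = 0.0171). This was the 1 alternative of 22 in which either day passed. That fit called 1817 and 1914 of all genes at days 4 and 11, against 691 and 792 in the main fit. The exons of Tnfrsf18 share 414 bases with an antisense gene, Gm16008, which had 0 to 7 normalised counts. The strand setting of the counting is not given in the sources used here.

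Tnfrsf4, the gene of OX40, neighbours Tnfrsf18 on the same strand (chr4:156013843-156016612). It had 78, 76 and 80 normalised counts at day 4, against 62, 61 and 47 in untreated marrow. Day 11 gave 60, 75 and 83, and day 18 gave 78, 54 and 90. The groups overlapped at days 11 and 18, and the change passed the test at none of the 3 days: 0.46 ± 0.20 (adjusted p = 0.215, 95% interval 0.03 to 0.9), 0.35 ± 0.20 (adjusted p = 0.363, −0.08 to 0.79) and 0.36 ± 0.20 (adjusted p = 0.313, −0.07 to 0.79) at days 4, 11 and 18. The upper bounds, at most 0.9, lie below the lowest 95% bound of the Tnfrsf9 change, 1.98.

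Traf1 encodes an adaptor that binds the CD137 tail together with TRAF2 (chr2:34941750-34961772, minus strand). It had 475, 316 and 454 normalised counts at day 4, 440, 395 and 452 at day 11 and 485, 358 and 505 at day 18, against 205, 262 and 289 in untreated marrow. All 9 treated samples exceeded all 3 untreated ones. The rise was much the same at each day: 0.71 ± 0.17 at day 4 (1.63-fold, adjusted p = 0.0326), 0.78 ± 0.17 at day 11 (1.71-fold, adjusted p = 0.017) and 0.83 ± 0.17 at day 18 (1.78-fold, adjusted p = 0.00763). The day 18 call was kept in all 22 alternatives, the other 2 were not. At day 4 it was lost without untreated replicate 1 (0.57, adjusted p = 0.133), untreated replicate 2 (0.74, adjusted p = 0.0634), day 4 replicate 1 (0.60, adjusted p = 0.0947), day 4 replicate 3 (0.63, adjusted p = 0.131) or day 11 replicate 1 (0.71, adjusted p = 0.0514). At day 11 it was lost without untreated replicate 1 (0.64, adjusted p = 0.074), day 11 replicate 1 (0.76, adjusted p = 0.0668) or day 11 replicate 3 (0.74, adjusted p = 0.07). With depth as a covariate, the day 4 change was 0.58 ± 0.27 (adjusted p = 0.455) and the day 11 change 0.72 ± 0.20 (adjusted p = 0.0807).

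Traf2, the adaptor and ubiquitin ligase scaffold of these receptors (chr2:25517982-25546940, minus strand), had between 902 and 1104 normalised counts in all 12 samples. It had 1057, 1104 and 978 at day 4, 975, 1001 and 997 at day 11 and 1038, 983 and 1059 at day 18, against 902, 998 and 978 in untreated marrow. The groups overlap at each day. Its changes of 0.12, 0.05 and 0.10, each ± 0.07, did not pass the test (adjusted p = 0.337, 0.742 and 0.429), and the 95% intervals reach no higher than 0.27 and no lower than −0.1.

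Birc3 encodes cIAP2, the ubiquitin ligase that TRAF2 brings to the receptor (chr9:7848699-7873186, minus strand). It had 2228, 2285 and 2131 normalised counts at day 4, 1893, 2010 and 1979 at day 11 and 2415, 2113 and 1913 at day 18, against 2371, 2227 and 2291 in untreated marrow. The 3 day 11 samples lay below all untreated ones, and the other days overlapped them. The changes were −0.05 ± 0.08 at day 4 (adjusted p = 0.757, 95% interval −0.22 to 0.11), −0.23 ± 0.08 at day 11 (adjusted p = 0.115, −0.39 to −0.06) and −0.10 ± 0.08 at day 18 (adjusted p = 0.467, −0.27 to 0.06). Without day 18 replicate 3, the day 11 change of −0.23 had an adjusted p of 0.0421, and with samples weighted by quality it was −0.25 (adjusted p = 0.0175). These were the 2 alternatives of 22 that called it. The weighted fit called 1914 of all genes at day 11, against 792 in the main fit. Of Traf1 and Birc3, both named above as NF-kB target genes, Traf1 was thus called higher at day 11 in the main fit and Birc3 was not called.

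Levels of different genes were compared as normalised counts per kb of exon. In untreated marrow Birc3 was highest, at 445 to 473 per kb. Traf2 (177 to 196) and Cd27 (157 to 196) followed and overlapped, then came Tnfrsf4 (34.4 to 45.4). Traf1 (23.2 to 32.8) overlapped Tnfrsf18 (17.1 to 24.3), and Tnfrsf9 was lowest, at 11.4 to 16.5 per kb, below every other member in every untreated sample. By day 18 Tnfrsf9 stood at 125 to 133 per kb. That placed it below Traf2 (193 to 208) and above Tnfrsf4 (39.6 to 65.9), Traf1 (40.6 to 57.3) and Tnfrsf18 (25.6 to 32.2), without overlap. Cd27 reached 348 to 414 per kb at day 18 and overlapped Birc3 (382 to 482). Among the 4 receptors, Tnfrsf9 therefore moved from last place in untreated marrow to second place, behind Cd27.

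T cell transcripts rose in the same samples. The summed level of 15 T cell marker genes was 4830 to 7855 normalised counts at day 4, 11741 to 12859 at day 11 and 12896 to 17314 at day 18, against 3085 to 5053 in untreated marrow. Of these 15 genes, 5, 14 and 14 were called higher at days 4, 11 and 18, against 2.40%, 3.20% and 5.29% of all genes. Cd4 was called at none of these days (−0.11, 0.23 and 0.44, adjusted p = 0.744, 0.45 and 0.0933). Cd8a was higher by 2.19 at day 11 (adjusted p = 0.000245) and by 2.63 at day 18 (adjusted p = 2.53e-05). The median log2 change of the 15 genes was 0.76, 1.74 and 2.0, while the median of all genes tested was between 0.0 and 0.006. In bulk marrow, more cells of a type and more RNA per cell cannot be told apart. Other cells that can carry these receptors gave the following values. The 10 natural killer genes summed to 2110 to 4016 at day 4, 2135 to 2285 at day 11 and 1864 to 2489 at day 18, against 1905 to 2413 in untreated marrow. At day 18, 7 of the 10 were called lower, where 3.91% of all genes were, and their median log2 change as a list was −1.52. Eomes, which the list shares with cytotoxic T cells, was higher by 2.77 (adjusted p = 1.53e-06) and made up much of the sum at that day. The other 9 genes summed to 1766 to 3410 at day 4, 1274 to 1480 at day 11 and 896 to 1579 at day 18, against 1793 to 2237 in untreated marrow. The 8 mast cell and basophil genes tested had 5 called higher at day 18, where 5.29% of all genes were. The 8 regulatory T cell genes tested, 2 of which are Tnfrsf4 and Tnfrsf18 themselves, had 3 called higher at day 18 (Ctla4, Il10 and Ikzf2). At day 11, 2 of these 8 were called higher and Il2ra lower (−0.81, adjusted p = 0.0347). Il2ra was not called at day 18 (−0.47, adjusted p = 0.18), nor were Lrrc32 and Capg at either day. Foxp3 was not analysed here. At day 18, 2 of 7 plasma cell genes, 3 of 10 dendritic cell genes, 1 of 8 monocyte and macrophage genes and 2 of 10 blood progenitor genes were called in either direction. Of all genes, 9.20% were called in either direction at that day. The part of cell composition in the changes of the 7 genes was not tested beyond the T cell comparison that follows.

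Tnfrsf9 was set against the T cell receptor complex by subtracting the mean log2 level of Cd3d, Cd3e, Cd3g, Cd247 and Trac, the T cell index, from its own log2 level in each sample. The difference averaged −1.22 ± 0.52 in the 9 treated samples and −2.39 ± 0.44 in the 3 untreated ones (SD). Tnfrsf9 therefore rose by 1.17 more than the index on the log2 scale, or 2.26-fold (exact permutation test, two-sided, p = 0.0136 over 220 arrangements, of which the smallest possible p is 0.00455). By day the excess was 1.65 at day 4, 0.73 at day 11 and 1.14 at day 18, and no test of 3 samples against 3 was made. The day 4 samples, at −0.84 to −0.63, and the day 18 samples, at −1.64 to −0.96, all lay above the untreated range of −2.88 to −2.02. The day 11 samples, at −2.27 to −1.17, overlapped it. Without untreated replicate 2 the excess was 0.93 and the p 0.0545.

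For the other 6 members the same difference was lower at each treated day than in untreated marrow, and it is given with no test. Cd27 relative to the index was at −0.75, −1.11 and −1.08 log2 units from untreated marrow at days 4, 11 and 18. Traf1 was at −0.22, −1.15 and −1.32, Tnfrsf18 at −0.27, −1.3 and −1.7 and Tnfrsf4 at −0.46, −1.57 and −1.79 relative to untreated marrow. Traf2 and Birc3, which many other marrow cells express, were at −2.05 and −2.25 by day 18. Among the 7 genes, Tnfrsf9 was the 1 whose transcripts increased by more than those of the T cell receptor complex.

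**Figure D3:**
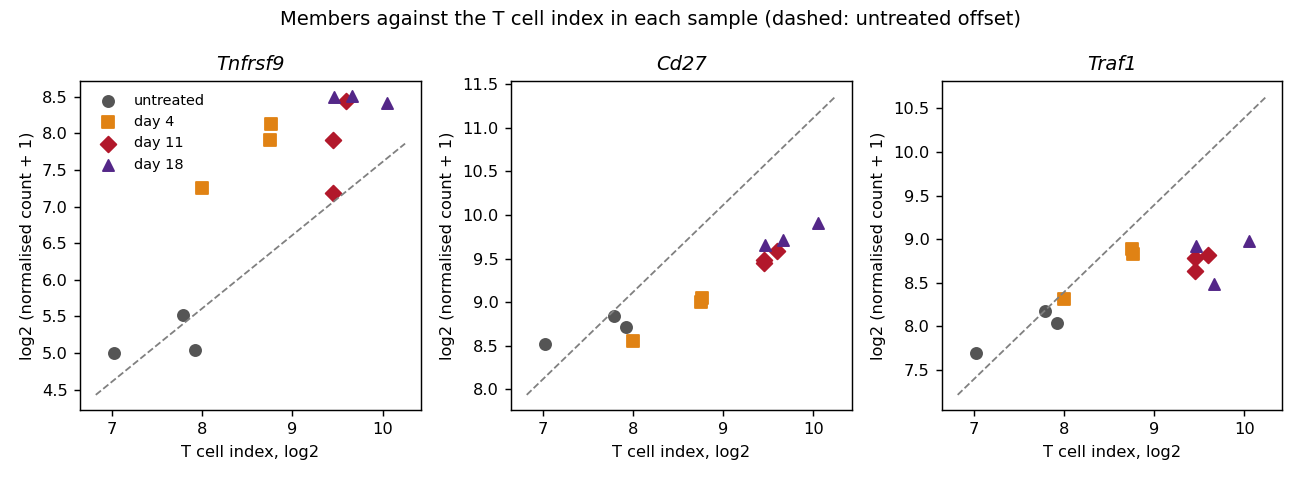
Log2 level of Tnfrsf9, Cd27 and Traf1 (vertical axes, log2 of normalised count + 1) against the T cell index, the mean log2 level of Cd3d, Cd3e, Cd3g, Cd247 and Trac (horizontal axes), in the 12 samples; the dashed line is the mean untreated difference from the index. The 9 treated samples lie above the line for Tnfrsf9 (1 day 11 sample only just), and below it for Cd27, while for Traf1 the day 4 samples lie near it and the day 11 and day 18 samples below it.

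Within a day, single samples moved together for several members. Day 4 replicate 2 had the lowest Tnfrsf9 (152), Cd27 (374) and Traf1 (316) of its day and also the lowest T cell index, 8.0 against 8.75 and 8.76 for the other day 4 samples. Day 11 replicate 2 had the lowest Tnfrsf9 (144) and Traf1 (395) of its day, at a T cell index of 9.45, the same as replicate 1. Over the 12 samples, Tnfrsf9 correlated with Traf1 at r = 0.899, with Cd27 at 0.769, with Tnfrsf18 at 0.701 and with Tnfrsf4 at 0.563. After subtracting group means, r was 0.593 with Traf1, 0.633 with Cd27, 0.036 with Tnfrsf18 and −0.075 with Tnfrsf4. These values describe samples that share their groups and libraries.

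The genes whose pattern over the 12 samples was most like that of Tnfrsf9, by Pearson r of log2 levels, were Nr4a2 (0.981), Tnfsf4 (0.972), Eomes (0.967), Cycs (0.959), Rgs16 (0.959), Sh2d1a (0.956), Serpinb9 (0.955), Cst7 (0.952), Copg1 (0.951) and Gzmk (0.951). Nr4a2 encodes an orphan nuclear receptor induced by T cell receptor signals, and it also led the list by residuals from group means (0.959). The genes ranked 2 to 10 by residuals, from Phf11c (0.936) to Ripply3 (0.898), were not among those named above. None of these r values was tested. Nr4a2 had 176, 124 and 186 normalised counts at day 4, 235, 147 and 284 at day 11 and 312, 367 and 368 at day 18, against 43, 44 and 55 in untreated marrow. Its order of samples within days 4 and 11 was that of Tnfrsf9. Eomes encodes a transcription factor of cytotoxic lymphocytes and Gzmk a granzyme. Likeness in pattern did not mean likeness in size: on the log2 scale Gzmk was 4.63, 6.82 and 7.22 above untreated marrow at days 4, 11 and 18, Eomes 1.83, 2.55 and 2.77, and Cycs, the cytochrome c gene, 0.28, 0.30 and 0.31. The nearest patterns to the other members differed: Cd8b1 (0.985), Ttc16 (0.984) and Cd3g (0.984) for Cd27, and Bmp7 (0.96), Skap1 (0.948) and Rasgef1a (0.939) for Traf1. The highest r was 0.939 for Birc3, with Syk, 0.914 for Tnfrsf18, with Psmc3, 0.881 for Traf2, with Srp14, and 0.853 for Tnfrsf4, with Gpatch4.

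Of the ligands for these receptors, that of CD137 (Tnfsf9) was not analysed here. Tnfsf4, which encodes the OX40 ligand, had 30, 8 and 28 normalised counts at day 4, 32, 23 and 44 at day 11 and 67, 55 and 50 at day 18, against 2 in each untreated sample. It rose by 2.74 ± 0.41 at day 4 (adjusted p = 0.00183), 3.46 ± 0.41 at day 11 (adjusted p = 0.000195) and 4.27 ± 0.41 at day 18 (adjusted p = 1.54e-05) on the log2(value + 1) scale. Because the untreated values are so low, these sizes depend on the pseudocount, and the day 4 change lay between 1.33 and 3.32 over the alternatives. With depth as a covariate the day 4 change was 2.81 (adjusted p = 0.119). The OX40 ligand was thus called at every day and its receptor at none; the difference between the 2 genes was not tested.

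Cd70, the CD27 ligand, had 4, 2 and 2 normalised counts at day 4, 1, 0 and 3 at day 11 and 1, 0 and 0 at day 18, and was listed at 0 in the 3 untreated samples. Tnfsf18, the GITR ligand, had 0 to 4 in all samples. Both fell under the filter on low values and were not tested, so no statement on a change in them is made. Of 12 TNF family ligands tested, 1, 3 and 5 were called in either direction at days 4, 11 and 18, where 4.64%, 5.32% and 9.20% of all genes were. Beside Tnfsf4, 2 death ligands were called at days 11 and 18. Fasl, the Fas ligand, had 133, 141 and 198 normalised counts at day 11 and 223, 294 and 246 at day 18, against 40, 46 and 43 in untreated marrow (1.83 ± 0.25, adjusted p = 0.000657, and 2.53 ± 0.25, adjusted p = 2.06e-05). Tnfsf10, the gene of TRAIL, rose by 0.92 ± 0.13 at day 11 (adjusted p = 0.000874) and by 1.25 ± 0.13 at day 18 (adjusted p = 3.28e-05). The lymphotoxin genes Ltb and Lta were lower at day 18, by −0.47 ± 0.13 (adjusted p = 0.0319) and −1.43 ± 0.40 (adjusted p = 0.0411), calls that 5 of 22 and 11 of 21 alternatives did not keep, among them leaving out untreated replicate 2 (−0.41, adjusted p = 0.118, and −1.27, adjusted p = 0.139), untreated replicate 3 (−0.47, adjusted p = 0.0928, and −1.35, adjusted p = 0.129) or day 18 replicate 2 (−0.33, adjusted p = 0.128, and −1.08, adjusted p = 0.162). For Lta they also included leaving out day 4 replicate 1 (adjusted p = 0.0517), day 11 replicate 2 (adjusted p = 0.0506) or day 18 replicate 1 (adjusted p = 0.0846).

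**Figure D4:**
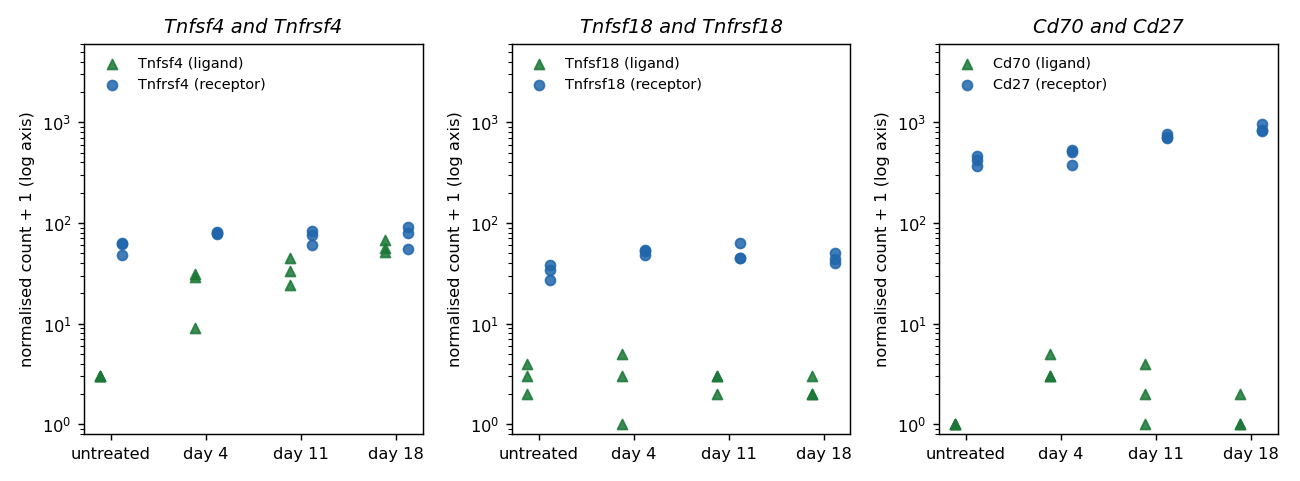
Normalised count + 1 on a log axis for 3 ligands (triangles) and their receptors (circles) in each sample of untreated marrow and days 4, 11 and 18; gene lengths differ, so heights are to be read within a gene. Tnfsf4 climbs to between 50 and 67 normalised counts at day 18 with Tnfrsf4 at 54 to 90 at day 18, against 47 to 62 in untreated marrow, and Tnfsf18 and Cd70 stay at 4 or below.

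Of 17 other receptors of the family, 1, 2 and 3 were called in either direction at days 4, 11 and 18, where 4.64%, 5.32% and 9.20% of all genes were, with a median log2 change of −0.12, −0.07 and −0.14. Tnfrsf13c, the BAFF receptor of B cells, had 418, 512 and 480 normalised counts at day 11 and 784, 560 and 490 at day 18, against 1084, 1262 and 1068 in untreated marrow. It fell by 1.27 ± 0.16 at day 11 (adjusted p = 0.000346) and by 0.92 ± 0.16 at day 18 (adjusted p = 0.00305). Tnfrsf13b, the B cell receptor TACI, fell by 0.54 ± 0.09 at day 11 (adjusted p = 0.00308) and by 0.42 ± 0.09 at day 18 (adjusted p = 0.00943), and its day 4 call (−0.35, adjusted p = 0.043) was lost in 11 of 22 alternatives, among them leaving out any single untreated or day 4 sample, day 11 replicate 3 or day 18 replicate 2 (−0.40 to −0.30, highest adjusted p = 0.13). With depth as a covariate the day 4 change of Tnfrsf13b was −0.06 (adjusted p = 0.876). Mature B cell genes moved with both: 11 of 11 were called lower at day 11 and 10 of 11 at day 18, against 2.12% and 3.91% of all genes. Their summed levels were 10535 to 11298 and 11363 to 16635 normalised counts at those days, against 21319 to 28971 in untreated marrow. Tnfrsf14, the gene of the receptor HVEM, was higher at day 18 by 0.39 ± 0.09 (adjusted p = 0.0129, and 0.35, adjusted p = 0.0529, without untreated replicate 1).

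Inside the cell, of 28 genes of TRAF adaptors, ubiquitin ligases and kinases outside the 7 members, 1, 1 and 2 were called in either direction at days 4, 11 and 18, with median log2 changes of −0.01, −0.02 and −0.01. These counts are near the shares of all genes given for the receptors. At day 18 these were Cyld, a deubiquitinase that restrains NF-kB signalling (3073, 3218 and 2989 normalised counts, against 2627, 2540 and 2564 in untreated marrow, 0.26 ± 0.06, adjusted p = 0.00851), and Otud7b (−0.25 ± 0.07, adjusted p = 0.0348). The Cyld call was lost in 1 of 22 alternatives, the fit of only the 2 groups compared (0.26, adjusted p = 0.0522). The Otud7b call was lost in 10 of 22 alternatives, among them leaving out any single untreated sample, day 4 replicate 3, day 18 replicate 2 or day 18 replicate 3 (−0.26 to −0.23, highest adjusted p = 0.12), and with depth as a covariate it was −0.20 (adjusted p = 0.0916). Map3k5, which encodes the stress kinase ASK1, was the call at days 4 and 11 (−0.41 ± 0.08, adjusted p = 0.0124, and −0.33 ± 0.08, adjusted p = 0.033). The day 4 call was lost without untreated replicate 1 (adjusted p = 0.0515), untreated replicate 3 (adjusted p = 0.0504) or day 4 replicate 2 (adjusted p = 0.0501), and the day 11 call without any single untreated sample, day 4 replicate 3, day 11 replicate 1 or day 11 replicate 3 (−0.35 to −0.26, highest adjusted p = 0.144). Both were also lost with depth as a covariate (−0.48, adjusted p = 0.18, and −0.36, adjusted p = 0.0683), and the day 11 call with no intensity trend (adjusted p = 0.0883).

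Of 10 NF-kB subunits and feedback inhibitors, 3 were called higher at day 4 (Tnfaip3, Nfkbia and Nfkbid) and 1, Tnfaip3, at the later days. Of all genes, 2.40%, 3.20% and 5.29% were called higher at days 4, 11 and 18. The Nfkbid call was lost in 7 of 22 alternatives, among them leaving out any single untreated sample, day 4 replicate 2 or day 4 replicate 3 (0.39 to 0.44, highest adjusted p = 0.0949), and with depth as a covariate Nfkbid (0.48, adjusted p = 0.246) and Nfkbia (0.68, adjusted p = 0.232) were not called. Tnfaip3, which encodes the NF-kB inhibitor A20, was 1.77 ± 0.12 above untreated marrow at day 4 (adjusted p = 7.93e-07), 0.47 ± 0.12 at day 11 (adjusted p = 0.0319) and 0.71 ± 0.12 at day 18 (adjusted p = 0.0016), a course with its peak at day 4, where that of Tnfrsf9 had its highest mean at day 18. Its day 11 call was lost in 7 of 22 alternatives, among them leaving out untreated replicate 1, untreated replicate 2 or any single day 11 sample (0.38 to 0.51, highest adjusted p = 0.126).

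Of 7 survival genes downstream of the receptors, 2 were called higher at each day, where 2.40%, 3.20% and 5.29% of all genes were at days 4, 11 and 18. These 2, Bcl2a1d and Bcl2a1b, belong to the Bcl2a1 group of nearly identical copies, so that their counts are uncertain. Bcl2a1b had 0 to 4 normalised counts in untreated marrow and 7 to 14, 8 to 12 and 7 to 11 at days 4, 11 and 18. Its calls were lost in 10, 8 and 9 of 21 alternatives at those days (highest adjusted p = 0.341, 0.106 and 0.107). The losses included leaving out untreated replicate 2, untreated replicate 3 or any single sample of the day tested. Bcl2a1d averaged 95.7 ± 15.0 normalised counts at day 4, 117 ± 22.1 at day 11 and 132 ± 21.1 at day 18, against 35.0 ± 10.6 in untreated marrow (SD, n = 3 each), and no group of treated samples overlapped the untreated range of 27 to 47. Its log2 change was 1.45 ± 0.22, 1.74 ± 0.22 and 1.91 ± 0.22 at days 4, 11 and 18 (adjusted p = 0.00178, 0.000279 and 8.13e-05), and 1.06 (adjusted p = 0.221) at day 4 with depth as a covariate.

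The summed level of immediate early genes, such as Fos and Jun, peaked at day 4 as well. The 11 measured genes of that list summed to 69640 to 83724 normalised counts at day 4, 17958 to 27158 at day 11 and 17203 to 23895 at day 18, against 11072 to 16512 in untreated marrow. At days 4, 11 and 18, 10, 9 and 6 of them were called higher, against 2.40%, 3.20% and 5.29% of all genes. Tnfrsf9 was higher in every day 18 sample than in any day 4 sample, while the summed level of these genes was lower in every day 18 sample than in any day 4 sample.

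Costimulatory receptors outside the family passed the test mainly at the later days. Of 8 tested, 1, 4 and 4 were called higher at days 4, 11 and 18, against 2.40%, 3.20% and 5.29% of all genes. The median log2 change of the 8 was 0.29, 0.45 and 0.80. Cd28, the main costimulatory receptor of naive T cells, was 1.45 ± 0.19 above untreated marrow at day 11 (adjusted p = 0.000515) and 1.57 ± 0.19 at day 18 (adjusted p = 0.000179). Cd2, an adhesion and costimulatory receptor, was higher by 0.72 ± 0.13 (adjusted p = 0.00491) and 0.88 ± 0.13 (adjusted p = 0.000728) at those days. These calls of Cd28 and Cd2 were kept in all 22 alternatives. The others were less stable. At day 11, Crtam (1.44, adjusted p = 0.0345) lost its call in 8 of 22 alternatives and Icos (1.2, adjusted p = 0.0277) in 7, among them leaving out any single day 11 sample, untreated replicate 1 or untreated replicate 3, and for Crtam untreated replicate 2 (0.93 to 1.6, highest adjusted p = 0.124). At day 18, Icos (1.22, adjusted p = 0.0173) lost it in 4, among them leaving out untreated replicate 1, untreated replicate 3 or day 18 replicate 3 (0.95 to 1.25, highest adjusted p = 0.0694). Slamf1 (0.72, adjusted p = 0.0318) lost it in 5, among them leaving out untreated replicate 1, day 18 replicate 1 or day 18 replicate 2 (0.53 to 0.73, highest adjusted p = 0.124). The day 4 call, of Crtam (2.12, adjusted p = 0.00476), was lost with depth as a covariate (1.89, adjusted p = 0.228). The changes of Cd28 and Cd2 lay, like those of Cd27, below the change of the T cell index, which was 1.92 and 2.15 above untreated marrow at days 11 and 18; these differences were not tested.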

How the data were processed

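Per the file headers, each deposited value is a normalised count, treated here as a score since it comes as a whole number, and the scaling is not given in the sources used here. Per the submitters' processing notes, STAR 2.3.0, Subread featureCounts 1.4.6, limma and GRCm38 were used. Per the labels' protocols, libraries were stranded mRNA libraries read as pairs of 150 bp.

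Computed here: a gene was tested where 3 or more samples reached 10 normalised counts (14883 genes, with 8251 removed), values were taken as log2(value + 1), and limma 3.58.1 in R 4.3.3 fitted 1 mean per group over all 12 samples with an intensity trend, 2-sided tests and Benjamini-Hochberg adjustment over all genes tested. The fit was tested on simulated data. The limma estimates have 8 residual and 5.73 prior degrees of freedom. The depth of each sample was estimated from gaps and repeats in the whole numbers up to 150, which assumes read counts multiplied by 1 factor per sample and rounded. Totals of the normalised counts were 19.16 to 20.84 M. The number of samples, 3 a group, limits the precision. Alternatives covered pseudocounts of 0.1 and 10, filters, scaling, the trend, sample weights, depth as a covariate, fits of only the 2 groups compared, other T cell indices and leaving out each sample. No pairing of samples is given. Genes named outside the 7 members were those of 17 hand-written lists called against untreated marrow, at most 5 per list by the F-test, and the genes with the highest correlations. The members and lists were chosen with earlier results of these data known. Promoter sequences are RefSeq's on GRCm38.p6.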

Additional observations from a re-analysis of the deposited data

Results flagged for a closer look

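The change of Cd27 from untreated marrow differed between treated days, by the test of the difference itself. It was 0.64 larger on the log2 scale at day 11 than at day 4 (0.81 ± 0.13 against 0.17 ± 0.13, SE, limma adjusted p = 0.0172). It was 0.90 larger at day 18 than at day 4 (1.07 ± 0.13 against 0.17 ± 0.13, adjusted p = 0.000824). All 3 samples of each later day lay above all 3 samples of day 4.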

How the results depend on the processing

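Across 22 alternatives, the calls of Tnfrsf9 against untreated marrow (2.32 to 2.83 at day 4, 2.36 to 2.99 at day 11, 3.0 to 3.45 at day 18) and of Cd27 at day 11 (0.70 to 0.88) and day 18 (0.98 to 1.14) kept their direction and side of the threshold. The number of members called at day 4 was 1 with no intensity trend, with depth as a covariate and with only the 2 groups compared, and 1 to 2 on leaving out each sample, since Traf1 lost its call. At day 11 and over the 4 time points it was 5 with samples weighted by quality. At day 11 it was 2 with no intensity trend and with depth as a covariate, where Traf1 lost its call, and 2 to 4 on leaving out each sample. Between day 11 and day 4 it was 0 with no intensity trend and 0 to 1 on leaving out each sample. The number of all genes called moved as well. At day 4 it was 416 with no intensity trend and 65 with depth as a covariate, against 691 in the main fit. At day 11 it was 521 and 425 in those fits and 1914 with samples weighted by quality, against 792 in the main fit. The counts of members are to be read beside these totals. Tnfrsf9 relative to the T cell index was 0.93 to 1.36 above untreated marrow on leaving out each sample (p 0.00606 to 0.0545), and 0.95 to 1.48 under the other alternatives. With depth as a covariate the day 4 changes of Cd27 (−0.08) and Birc3 (0.04), called in neither fit, turned sign; the cause was not tested. No paired analysis was possible because the labels give no replicate numbers, and those used here only number the samples within a group. The main limits are 3 samples a group, the lower depth at day 4, and the joint course of treatment and myeloma growth. Tnfsf18 and Cd70 fell under the filter.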
